A study of Mus with 9 samples.

Results

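The transcription factor genes *Pax2*, *Pax8*, *Lhx1*, *Emx1*, *Tfap2b*, *Foxi1*, *Sox9* and *Sox4*, which shape the nephron or mark its repair, were followed in mouse kidney RNA at 18 and 21 months of age and under O304. These 8 genes were taken by symbol from a table of 54532 genes, and all 8 were among the 15902 genes that passed the filter on low counts. The 9 kidney libraries of male C57BL/6 mice fell into the groups 18 mo, 21 mo and 21 mo/O304, with 3 libraries per group. All mice had lost 1 kidney by unilateral nephrectomy at 18 months of age. Mice of the 18 mo group got no injections and were examined 1 week later. The 21 mo group received saline and the 21 mo/O304 group received O304, an activator of the energy-sensing kinase AMPK, by daily intraperitoneal injection for 12 weeks, with O304 at 10 mg/kg/day. Age, time after surgery and injection differ together between the 18 mo group and the others and cannot be told apart. The labels number the libraries of a group as replicates and do not say that each is a separate mouse, so p-values measure the spread between these libraries.

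Pax2 and Pax8 are paired-box factors that act together to specify the nephric lineage and persist in tubule cells of the adult kidney. Lhx1, a LIM homeobox factor, patterns the early nephron, Tfap2b is needed for the distal nephron, and Foxi1 directs the intercalated cells of the collecting duct, which handle acid and base. Emx1 is a homeobox factor known best from the developing cerebral cortex. Sox9 is scarce in the healthy adult tubule and is switched on in tubule cells after injury, where it marks cells that take part in repair. Sox4 is a related factor of progenitor cells in the developing kidney and other organs.

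Counts on genes summed to between 15636378 and 18396725 per library, so that 1 count was worth between 0.0458 and 0.0669 CPM, the count scaled to library size after TMM normalization. The coordinates below are those of the deposited table, for which the submitters' processing notes name GRCm38. The libraries of the 21 mo group stood apart from each other. A list of 22 genes of injured and repairing tubules, among them *Havcr1*, *Lcn2*, *Spp1* and *Krt20*, summed to 2612, 15594 and 19400 CPM in the 21 mo group (replicates 1, 2 and 3). It summed to 1624 to 1881 CPM in the 18 mo group and 1736 to 2308 CPM in the 21 mo/O304 group. Markers of the proximal tubule, the main cell type of the kidney cortex, were present in every library. The 12 markers summed to 9170 and 2552 CPM in replicates 2 and 3 of the 21 mo group and to between 18440 and 23026 CPM in the other 7 libraries. A list of 6 urothelial markers, genes of the lining of the renal pelvis and bladder, summed to 33.7 and 233.3 CPM in those replicates 2 and 3 and to at most 3.14 CPM elsewhere. The sources used here do not say which part of the kidney the RNA came from. RNA of bulk tissue cannot tell fewer cells of a type from less RNA per cell, and the part of cell makeup in the results below was not tested.

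The most abundant of the 8 genes in 18-month-old mice was *Emx1*. FPKM, the deposited level per gene length, allows genes to be compared with each other, and *Emx1* had a mean of 21.5 FPKM in the 18 mo group, with libraries from 20.2 to 22.9. It was followed by *Pax8* at 8.48 FPKM, *Foxi1* at 7.56, *Tfap2b* at 5.98, *Lhx1* at 5.20 and *Pax2* at 4.72. The ranges of neighbours in this middle stretch overlapped, so their order was not resolved. *Sox4* at 2.54 FPKM and *Sox9* at 0.519 FPKM closed the list, each with a range below that of the gene before it. In the 21 mo group the order was different. *Pax8* came first with a mean of 12.2 FPKM, *Emx1* had 9.12 FPKM, *Sox9* stood between *Foxi1* and *Pax2* at 6.12 FPKM and *Lhx1* was last at 2.59 FPKM. The ranges of all neighbours overlapped in that group, where *Sox9* alone ran from 0.705 to 11.3 FPKM. In the 21 mo/O304 group *Emx1* at 19.0 FPKM again led without overlap with *Pax8* at 8.07 FPKM, *Lhx1* at 6.73 FPKM came next, and *Sox4* at 1.47 FPKM and *Sox9* at 0.505 FPKM were again the lowest.

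**Figure D1:**
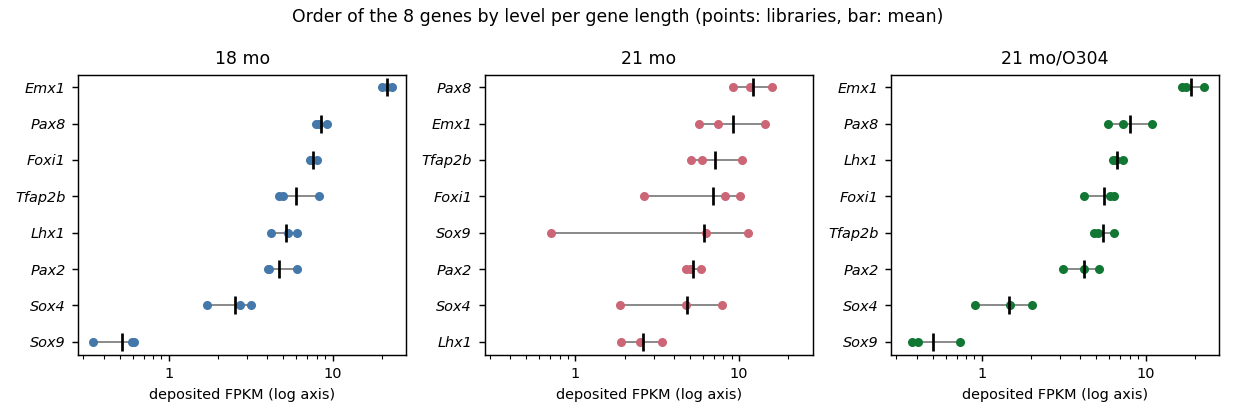
Deposited FPKM of the 8 genes on a log axis, 1 panel for each group, sorted by group mean; points are the 3 libraries, the grey line their range and the black bar their mean. *Sox9* is lowest in the 18 mo and 21 mo/O304 groups and spreads from 0.705 to 11.3 FPKM in the 21 mo group.

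The 21 mo group was first compared with the 18 mo group, from which it differs in age, time after surgery and injection. *Sox9* was 11.9-fold higher on average in the 21 mo group, while *Lhx1* and *Emx1* were at 0.499 and 0.424 of their 18 mo level. *Sox4* and *Pax8* were higher in replicates 2 and 3 of the 21 mo group, *Pax2* stayed within the 18 mo range, and *Tfap2b* and *Foxi1* differed among the 21 mo libraries with no common direction. None of the 8 genes had an adjusted p under 0.05 in edgeR's quasi-likelihood test, against 0.0189% of all tested genes, which is 3 genes. Before adjustment, p was under 0.05 for 3 of the 8, *Sox9*, *Lhx1* and *Emx1*, or 37.5%, against 26.1% of all tested genes and 23.5% of the 1015 tested genes that the table annotates as transcription factors. With DESeq2 these 3 genes had an adjusted p under 0.05, where 12.3% of all genes did. With every gene of at least 1 count tested, 3 of the 8 passed against 2.04% of genes, and with limma voom and sample quality weights 6 of the 8 passed against 52.9%.

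*Sox9* lies on chromosome 11 from 112782224 to 112787760, on the plus strand, where no other gene of the table overlaps it. Its counts were 24, 42 and 45 in the 18 mo group (replicates 1, 2 and 3), which is 1.49, 2.59 and 2.55 CPM. In the 21 mo group they were 45, 473 and 1064, or 3.01, 26.9 and 48.7 CPM. Replicates 2 and 3 of the 21 mo group were thus far above the 18 mo group, while replicate 1 was only just above it. Counting error alone covers 2.20 to 4.03 CPM for that replicate 1 and 1.87 to 3.50 CPM for replicate 2 of the 18 mo group (exact Poisson interval, 95%), so these libraries were not resolved from each other at this depth. The log2 fold change of *Sox9* was 3.57 (SE 0.83, 95% interval 1.70 to 5.44, adjusted p = 0.0697, edgeR). All 3 libraries of the 21 mo group were higher (p = 0.1 in a two-sided exact permutation test, below which 3 against 3 libraries cannot go). In a fit that dropped the first 21 mo replicate it was 4.11 (adjusted p = 0.00236, edgeR), a fit in which 25.4% of all genes passed, and in one that dropped replicate 3 it was 2.74 and did not pass. Of the 1015 tested transcription factors, *Sox9* had the second highest log2 fold change in this comparison, after *Nfe2l3*.

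*Sox4* lies on chromosome 13 from 28948919 to 28953713, on the minus strand, and overlaps *Gm26735*, an opposite-strand gene that had 0 counts in all 9 libraries. It had 15.9, 8.38 and 13.5 CPM in the 18 mo libraries and 9.30, 23.4 and 39.4 CPM in the 21 mo libraries. Replicate 1 of the 21 mo group lay inside the 18 mo range, and the other 2 lay above it. The log2 fold change was 0.93 (SE 0.49, 95% interval -0.18 to 2.05, adjusted p = 0.260, edgeR). Leaving replicate 1 of the 21 mo group out brought it to 1.33 (adjusted p = 0.0344, edgeR), and leaving replicate 3 out to 0.36. In replicates 2 and 3 of the 21 mo group, which had the highest *Sox9* and *Sox4*, the injured tubule, fibroblast and urothelial lists were also highest. The 9 fibroblast markers summed to 165.3, 610.8 and 1528 CPM in the 21 mo libraries against 206.8 to 312.0 CPM in the 18 mo group, and the 8 macrophage markers to 455.5, 535.7 and 1523 CPM against 229.3 to 346.3 CPM.

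*Emx1* was lower in each 21 mo library than in any 18 mo library. It lies on chromosome 6 from 85187438 to 85204462, on the plus strand, with no overlapping gene. Its level was 48.8, 51.0 and 45.4 CPM in the 18 mo libraries and 32.2, 16.7 and 12.8 CPM in the 21 mo libraries. The log2 fold change of *Emx1* was -1.24 (SE 0.30, 95% interval -1.92 to -0.56, adjusted p = 0.0742, edgeR). *Lhx1*, on chromosome 11 from 84518284 to 84525535 and on the minus strand, had a similar course. It had 17.8, 25.3 and 22.3 CPM in the 18 mo group and 14.2, 10.3 and 8.06 CPM in the 21 mo group. Again the groups did not overlap, and the log2 fold change was -1.0 (SE 0.22, 95% interval -1.49 to -0.51, adjusted p = 0.0631, edgeR). Counting all tested genes, 28.8% had groups that did not overlap in this comparison, against 3 of the 8 factors. In the fit that dropped the first 21 mo replicate both passed, *Emx1* at -1.70 (adjusted p = 0.00311, edgeR) and *Lhx1* at -1.23 (adjusted p = 0.00596, edgeR), while no fit without another library called either of them.

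*Pax8*, on chromosome 2 from 24420560 to 24475599 on the minus strand, had 50.4, 50.8 and 57.8 CPM in the 18 mo group and 57.5, 72.8 and 99.8 CPM in the 21 mo group. Replicate 1 of the 21 mo group fell just inside the 18 mo range. Its log2 fold change was 0.53 (SE 0.26, 95% interval -0.04 to 1.11, adjusted p = 0.220, edgeR). Its paralog *Pax2*, on chromosome 19 from 44756045 to 44837871 on the plus strand, had 34.3, 22.1 and 22.8 CPM in the 18 mo group and 26.4, 27.9 and 33.0 CPM in the 21 mo group. All 3 libraries of the 21 mo group lay within the 18 mo range, and the log2 fold change of *Pax2* was 0.14 (SE 0.23, 95% interval -0.37 to 0.65, adjusted p = 0.715, edgeR). The genes whose positions overlap *Pax8* and *Pax2* held 32 and 8 counts in all 9 libraries together, against 9505 and 4086 for the Pax genes.

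*Tfap2b* and *Foxi1*, the factors of distal segments, differed between single libraries more than between groups. *Tfap2b*, on chromosome 1 from 19208914 to 19238576 on the plus strand, had 54.4, 30.5 and 32.6 CPM in the 18 mo group and 38.6, 68.3 and 33.6 CPM in the 21 mo group. The highest library was replicate 2 of the 21 mo group, and without it the log2 fold change of 0.26 (SE 0.30, edgeR adjusted p = 0.610) became -0.13. *Foxi1*, on chromosome 11 from 34204338 to 34208089 on the minus strand, was tightly grouped at 18.1, 19.3 and 17.7 CPM in the 18 mo group. It had 6.42, 24.6 and 20.1 CPM in the 21 mo group, so that replicate 1 was below and the other 2 above every 18 mo library. Its log2 fold change was -0.11 (SE 0.40, 95% interval -1.01 to 0.80, adjusted p = 0.884, edgeR) and was 0.30 without replicate 1 of the 21 mo group.

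**Figure D2:**
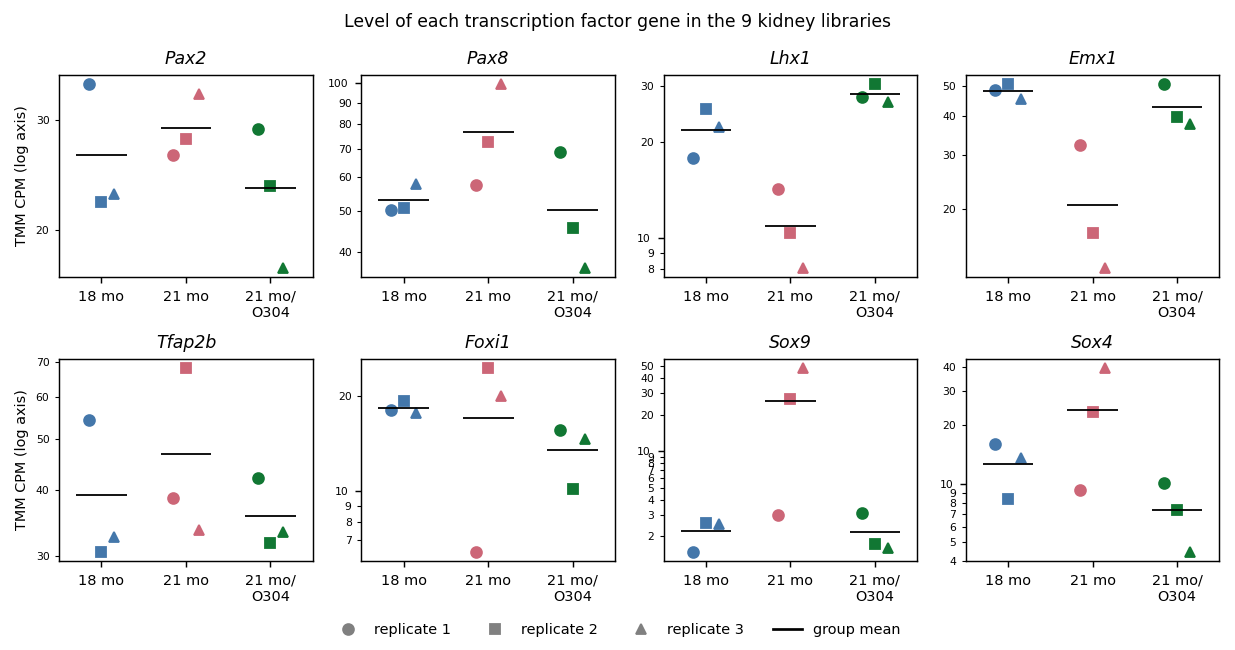
TMM-normalized CPM of each gene in the 9 libraries on log axes that differ between panels; marker shape gives the replicate number and the black line the group mean. In the 21 mo group replicate 1 of *Sox9* is at 3.01 CPM, near the 18 mo and 21 mo/O304 libraries, and replicates 2 and 3 are at 26.9 and 48.7 CPM.

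The 21 mo/O304 group was then compared with the 21 mo group to see how the factors stood after O304. *Lhx1* and *Emx1* were higher in every library given O304 than in every library given saline, by 2.60-fold and 2.09-fold. *Sox9* and *Sox4* were at 0.0824 and 0.303 of their 21 mo level. None of the 8 genes had an adjusted p under 0.05 with edgeR, nor did any gene tested (0%). Before adjustment, p was under 0.05 for 5 of the 8, *Lhx1*, *Sox9*, *Emx1*, *Sox4* and *Pax8*, or 62.5%, against 20.7% of all tested genes and 17.5% of tested transcription factors. With DESeq2, *Lhx1*, *Sox9*, *Sox4* and *Emx1* had an adjusted p under 0.05, where 5.75% of all genes did. With every gene of at least 1 count tested, 1 of the 8 passed against 0.0602% of genes, and with limma voom and quality weights 7 passed against 41.1%. Since both comparisons use the same 21 mo libraries, a low or high 21 mo value enters both with opposite sign.

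*Lhx1* had 27.7, 30.4 and 26.6 CPM in replicates 1 to 3 of the 21 mo/O304 group, against 14.2, 10.3 and 8.06 CPM in the 21 mo group. All 3 libraries given O304 were well above the highest 21 mo library. Its log2 fold change was 1.38 (SE 0.22, 95% interval 0.89 to 1.87, adjusted p = 0.175, edgeR), and its unadjusted p of 0.000135 was the seventh smallest of all 15902 genes. *Emx1* had 51.0, 39.7 and 37.6 CPM with O304, all above the 32.2 CPM of the highest 21 mo library. Its log2 fold change was 1.06 (SE 0.30, 95% interval 0.38 to 1.74, adjusted p = 0.175, edgeR). Groups without overlap were found for these 2 of the 8 genes and for 21.3% of all tested genes. Adipocyte markers differed between the same groups, with a summed level of 40.6 to 245.8 CPM in the libraries given O304, 5.02 to 11.3 CPM in the 21 mo group and 14.4 to 47.0 CPM in the 18 mo group. All 5 tested of 7 listed were higher with O304 than in the 21 mo group without overlap (median log2 fold change 4.90), and their part in the values of *Lhx1* and *Emx1* was not tested.

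*Sox9* had 54, 29 and 25 counts in the 21 mo/O304 group, or 3.14, 1.73 and 1.59 CPM. These libraries were below replicates 2 and 3 of the 21 mo group, but replicate 1 with O304 was slightly above the 3.01 CPM of replicate 1 without it, so the groups overlapped. The log2 fold change was -3.60 (SE 0.83, 95% interval -5.47 to -1.73, adjusted p = 0.175, edgeR), and it was -2.78 in the fit that dropped replicate 3 of the 21 mo group. *Sox4* had 10.1, 7.33 and 4.46 CPM with O304 against 9.30, 23.4 and 39.4 CPM without, and its log2 fold change was -1.72 (SE 0.51, 95% interval -2.87 to -0.58, adjusted p = 0.175, edgeR), or -1.16 in that same fit. Here too replicate 1 of the 21 mo group lay among the libraries given O304. *Pax8* had 68.9, 45.5 and 36.7 CPM with O304, and its log2 fold change was -0.61 (SE 0.26, 95% interval -1.18 to -0.03, adjusted p = 0.230, edgeR).

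The other 3 genes also overlapped between the groups, as *Sox9*, *Sox4* and *Pax8* did. *Pax2* had 29.0, 23.5 and 17.4 CPM with O304 and a log2 fold change of -0.32 (SE 0.23, edgeR adjusted p = 0.415). *Tfap2b* had 42.2, 31.7 and 33.2 CPM and a log2 fold change of -0.39 (SE 0.30, edgeR adjusted p = 0.458), which was -0.01 without replicate 2 of the 21 mo group. *Foxi1* had 15.6, 10.2 and 14.6 CPM and a log2 fold change of -0.34 (SE 0.40, edgeR adjusted p = 0.626). For *Foxi1* the value was -0.74 in the fit that dropped the first 21 mo replicate (adjusted p = 0.0314, edgeR) and 0.02 in the fit that dropped replicate 2. In that fit without replicate 1, *Sox9* at -4.13, *Sox4* at -2.11, *Lhx1* at 1.61 and *Emx1* at 1.53 passed as well, 5 of the 8 genes, where 23.1% of all tested genes passed.

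**Figure D3:**
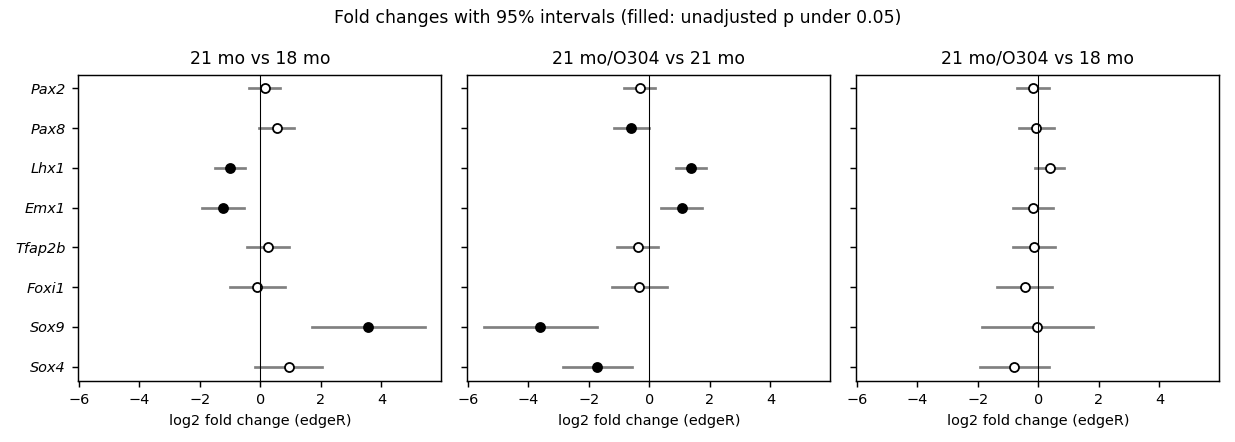
Log2 fold change of each gene from edgeR with its 95% interval in the 3 comparisons; filled points have an unadjusted p under 0.05. *Sox9* stands at 3.57 in 21 mo against 18 mo and at -3.60 in 21 mo/O304 against 21 mo, and all 8 intervals of 21 mo/O304 against 18 mo include 0.

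Whether the 21 mo/O304 group differed from the younger 18 mo group was examined last. With edgeR on all 9 libraries, none of the 8 genes had a p under 0.05 before adjustment. That compares with 9.66% of all tested genes and 11.6% of tested transcription factors. None of the 15902 genes passed the adjusted threshold (0%). This fit shares its spread with the scattered 21 mo group. With edgeR on only the 6 libraries compared, unadjusted p was 0.0257 for *Foxi1*, 0.0317 for *Lhx1* and 0.0395 for *Sox4*, and at least 0.182 for the other members. Adjusted p of these 3 was 0.186, 0.203 and 0.223, in a fit where 22 of 15308 genes passed. DESeq2 and limma voom also called 0 of the 8, while they called 0.884% and 2.61% of all genes. *Lhx1* was higher in all 3 libraries given O304 than in any 18 mo library, with a log2 fold change of 0.37 (SE 0.21, 95% interval -0.11 to 0.85, adjusted p = 0.614, edgeR). *Foxi1* was lower in all 3, with a log2 fold change of -0.45 (SE 0.40, 95% interval -1.36 to 0.47, adjusted p = 0.774, edgeR). These were the 2 of 8 genes without overlap, where 26.5% of all tested genes had none. *Sox4* had a log2 fold change of -0.79 (SE 0.50, 95% interval -1.92 to 0.34, adjusted p = 0.657, edgeR). The log2 fold changes of *Emx1*, *Pax2*, *Tfap2b*, *Pax8* and *Sox9* were -0.18, -0.18, -0.13, -0.07 and -0.03. The 95% interval of *Sox9* ran from -1.87 to 1.80, in a model whose spread is shared by all 3 groups.

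**Figure D4:**
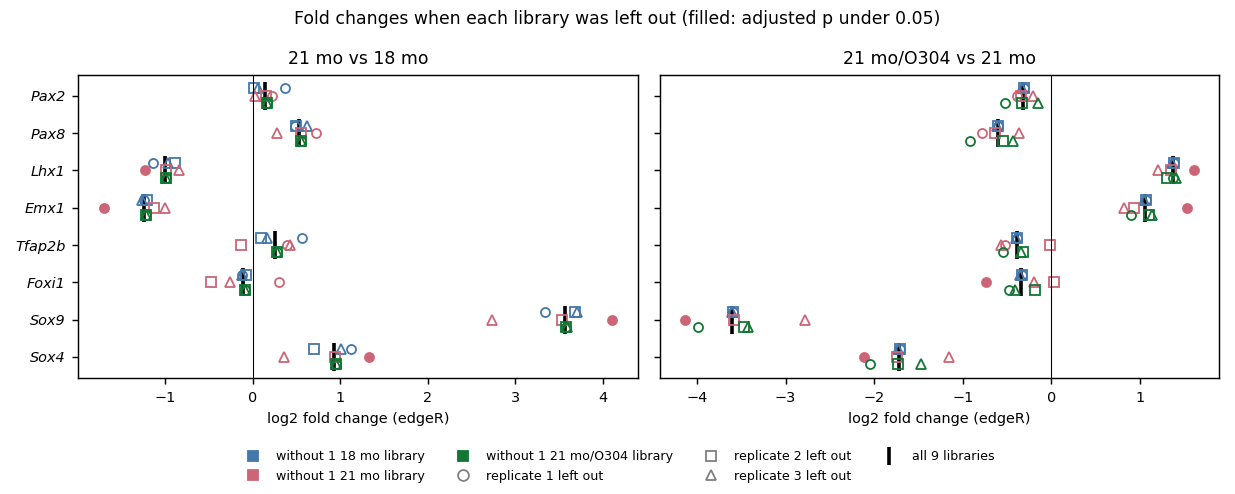
Log2 fold changes from edgeR when each of the 9 libraries was left out in turn, by the group (color) and replicate (shape) left out; black bars are the fit of all libraries and filled symbols have an adjusted p under 0.05. Filled symbols occur only in the fit without replicate 1 of the 21 mo group, for 4 genes in 21 mo against 18 mo and 5 genes in 21 mo/O304 against 21 mo.

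Close relatives of the 8 factors were mostly silent in these kidneys. Of 38 other genes of the Pax, Sox, Lhx, Emx, AP-2 and Foxi families, 10 passed the filter on low counts, and no other Pax or Foxi gene was among them. None of the 10 had an adjusted p under 0.05 in any comparison with edgeR. Before adjustment, p was under 0.05 for 2 of them in 21 mo against 18 mo, or 20% against 26.1% of all tested genes. It was under 0.05 for 0 in 21 mo/O304 against 21 mo, against 20.7% of all tested genes. In 21 mo/O304 against 18 mo it was under 0.05 for 1, or 10% against 9.66% of all tested genes. *Tfap2a*, the paralog of *Tfap2b*, had 2.04, 2.03 and 2.60 CPM in the 18 mo group and 1.87, 5.11 and 8.93 CPM in the 21 mo group, with a fitted log2 difference of 1.26 (SE 0.49, edgeR, adjusted p = 0.152). Like *Sox9*, it was high in replicates 2 and 3 only. *Sox13*, another Sox family member, was lower in every 21 mo library than in every 18 mo library, with a log2 fold change of -0.41 (SE 0.11, edgeR adjusted p = 0.0823). *Sox12*, of the same subgroup as *Sox4*, had a log2 fold change of -0.51 (SE 0.25, edgeR adjusted p = 0.229) in that comparison. Under O304 the smallest p-values in these families were those of *Sox5*, *Tfap2a* and *Sox6*, with log2 fold changes against the 21 mo group of -1.01, -0.89 and 0.24. Against the 18 mo group they were those of *Sox13*, *Sox18* and *Sox12*, at -0.28, 0.71 and -0.35.

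Other transcription factors of the kidney were read from a list of 50 genes, of which 46 were tested. None passed the adjusted threshold with edgeR in any comparison. In 21 mo against 18 mo, 7 had an unadjusted p under 0.05 and were higher and 4 were lower, together 23.9% against 26.1% of all genes tested, and the median log2 fold change was 0.24, against 0.03 over all genes tested. *Klf6*, an early injury response factor, had 38.2, 36.9 and 43.0 CPM in the 18 mo group and 59.1, 190.3 and 185.6 CPM in the 21 mo group, with a fitted log2 difference of 1.88 (SE 0.38, edgeR, adjusted p = 0.0626). *Hmx2* had a log2 fold change of -1.87 (SE 0.46, edgeR adjusted p = 0.0758), and neither gene overlapped between the groups.

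In 21 mo/O304 against 21 mo, 4 genes of the list had an unadjusted p under 0.05 and were higher and 12 were lower, together 34.8% against 20.7% of all genes tested, with a median log2 fold change of -0.23 against -0.02 over all genes tested. *Klf6* was at -1.77 (SE 0.38, adjusted p = 0.175, edgeR), without overlap, and *Elf3*, an epithelial ETS factor, at -2.02 (SE 0.54, adjusted p = 0.175, edgeR). In 21 mo/O304 against 18 mo, 0 genes of the list had an unadjusted p under 0.05. Among the smallest p-values there were those of *Foxm1*, a cell cycle factor, and *Tfcp2l1*, a collecting duct factor, with log2 fold changes of -1.20 and 0.39.

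The levels of cell type genes that these factors go with in the kidney were laid beside them. None of the 22 genes of injured and repairing tubules passed the adjusted threshold. An unadjusted p under 0.05 was found for 18 of them in 21 mo against 18 mo, all higher, or 81.8% against 26.1% of all tested genes. In 21 mo/O304 against 21 mo it was found for 19, all lower, or 86.4% against 20.7% of all tested genes. The median log2 fold changes of the list were 2.28 and -1.90. In 21 mo against 18 mo the smallest p-values were those of *Prom1*, *Spp1* and *Krt20*, with log2 fold changes of 1.68, 3.64 and 4.53. Under O304 they were those of *Prom1*, *Spp1* and *Cdh6*, at -1.67, -3.42 and -2.71. In 21 mo/O304 against 18 mo they were those of *Tnfrsf12a*, *Cd44* and *Krt20*, at -0.69, 0.80 and 1.12. *Prom1*, which encodes the progenitor marker CD133, had 162.2, 170.0 and 249.7 CPM in the 21 mo group against 51.0 to 71.7 CPM in the 18 mo group, so that in contrast to *Sox9* its replicate 1 was already far above the 18 mo range.

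The 12 genes of the distal convoluted tubule all had lower fitted values in the 21 mo group than in the 18 mo group. The unadjusted p was under 0.05 for 5 of them, or 41.7% against 26.1% of all tested genes. All 12 had higher values under O304, 6 of them with an unadjusted p under 0.05, or 50% against 20.7% of all tested genes. None of the 12 passed the adjusted threshold with edgeR. Their summed level was 4567, 2668 and 2056 CPM in the 21 mo libraries, against 4639 to 5688 CPM in the 18 mo group and 5278 to 6746 CPM in the 21 mo/O304 group. *Slc12a3*, the thiazide-sensitive sodium chloride cotransporter, had a log2 fold change of -0.99 (SE 0.30, edgeR adjusted p = 0.0975) in 21 mo against 18 mo. Under O304 *Trpm6*, a magnesium channel, had the smallest p of the list, at 1.26 (SE 0.22, adjusted p = 0.175, edgeR), followed by *Klk1* at 0.98 and *Cnnm2* at 0.54. In 21 mo against 18 mo *Wnk4* and *Klk1* stood at -0.51 and -0.63, and in 21 mo/O304 against 18 mo *Trpm6*, *Calb1* and *Wnk4* stood at 1.23, 0.71 and -0.26. *Lhx1* and *Emx1* were lowest in replicates 2 and 3 of the 21 mo group, where this list was lowest. The proximal tubule list was lowest there too, at 9170 and 2552 CPM. In replicate 1 of that group the distal list, at 4567 CPM, was just below the lowest 18 mo library, at 4639 CPM. There *Lhx1* at 14.2 CPM and *Emx1* at 32.2 CPM were also below every 18 mo library. The part of these cell types in the *Lhx1* and *Emx1* values was not tested. *Tfap2b* had its highest level, 68.3 CPM, in replicate 2 of the 21 mo group. Beside *Tfap2b*, the 8 principal cell markers summed to 741.8 and 730.2 CPM in replicate 1 of the 18 mo group and replicate 2 of the 21 mo group, where *Tfap2b* had 54.4 and 68.3 CPM. They summed to 496.0 and 512.2 CPM in replicate 1 of the 21 mo and of the 21 mo/O304 group and to 278.3 to 417.3 CPM in the other 5 libraries, where *Tfap2b* had 30.5 to 33.6 CPM. The 6 markers of the thick ascending limb were also high in both libraries with the most *Tfap2b*, at 7673 and 6267 CPM, and at 6640 CPM in replicate 1 of the 21 mo group, against 2220 to 4004 CPM in the others. The distal convoluted tubule list did not follow *Tfap2b*. That list stood at 4639 and 2668 CPM in both libraries with the most *Tfap2b*, and at 2056 to 6746 CPM in the others. It stood at 5688 CPM in replicate 2 of the 18 mo group, where *Tfap2b* was lowest at 30.5 CPM. The part of these cell types in the *Tfap2b* values was not tested.

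For *Foxi1*, 16 intercalated cell genes, which include its known targets *Atp6v1b1* and *Slc26a4*, were used. Of these, 7 had an unadjusted p under 0.05 and were lower in 21 mo against 18 mo, or 43.8% against 26.1% of all tested genes. In 21 mo/O304 against 21 mo 4 were higher at that threshold, or 25% against 20.7% of all tested genes. Whatever their p, 10 of the 16 were lower and 6 higher in the first comparison, and 11 were higher and 5 lower in the second. The median log2 fold changes were -0.51 and 0.35, and none of the 16 passed the adjusted threshold with edgeR. *Slc4a9*, a transporter of the type B intercalated cell, had 27.7, 36.8 and 33.7 CPM in the 18 mo group and 24.0, 18.1 and 17.7 CPM in the 21 mo group, with a fitted log2 difference of -0.72 (SE 0.20, edgeR, adjusted p = 0.0871). *Insrr* and *Atp6v1g3* had log2 fold changes of -1.66 and -0.67 in the same comparison. Under O304 *Atp6v1c2*, *Insrr* and *Slc4a9* stood at 0.73, 1.20 and 0.53, and in 21 mo/O304 against 18 mo *Aqp6*, *Hepacam2* and *Rhbg* stood at -0.66, 0.40 and -0.49. The summed list stood at 978.3 CPM in replicate 1 of the 21 mo group, where *Foxi1* was lowest at 6.42 CPM, and at 887.3 and 658.2 CPM in replicates 2 and 3, where *Foxi1* had 24.6 and 20.1 CPM. In the 21 mo/O304 group the list stood at 1174, 835.3 and 922.5 CPM where *Foxi1* had 15.6, 10.2 and 14.6 CPM, and in the 18 mo group at 924.7, 1014 and 962.6 CPM where *Foxi1* had 18.1, 19.3 and 17.7 CPM. Factor and list were thus ordered alike in the 21 mo/O304 group and both highest in replicate 2 of the 18 mo group, and in the 21 mo group the library lowest in *Foxi1* was the highest in the list. The sum does not speak for each gene. Of the 16, 7 were lower in every 21 mo library, replicate 1 included, than in any 18 mo library. Groups without overlap, in either direction, were found for 28.8% of all tested genes in that comparison.

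**Figure D5:**
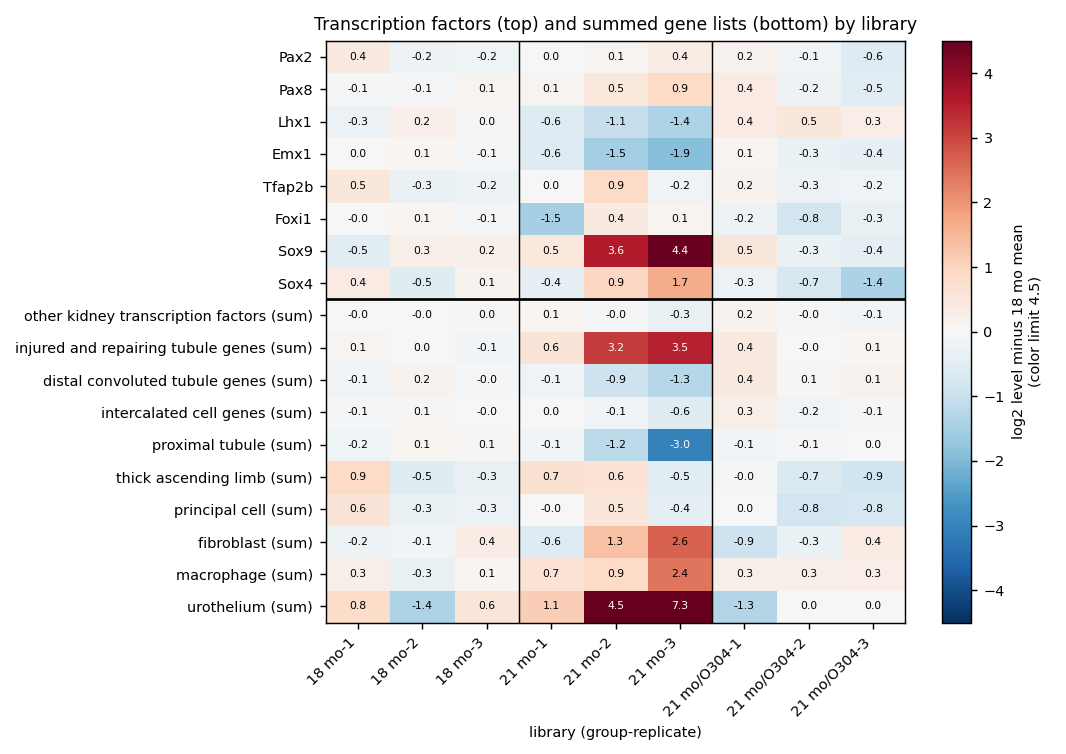
Log2 level of each gene (top) and of the summed CPM of gene lists (bottom) in each library, minus the mean of the 18 mo group; colors end at 4.5 and the number in each cell is the value. Replicates 2 and 3 of the 21 mo group carry the high values of *Sox9*, injured tubule, fibroblast and urothelial genes and the low values of *Lhx1*, *Emx1* and proximal tubule genes.

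The genes whose levels ran most like each factor were ranked by Pearson's r of log2 CPM over the 9 libraries among 13915 other protein-coding genes. With so few libraries and a group that stands apart, high values are common, and 410 genes had an r over 0.9 with *Sox9* and 736 with *Emx1*. For *Sox9* the first 5 were *Plp2*, *Bag2*, *Ucp2*, *Plscr1* and *Frk*, with r from 0.979 to 0.993. For *Sox4* they were *Lig1*, *Tcf19*, *Ano6*, *Stox2* and *Plec*, from 0.977 to 0.983. The list for *Emx1* held *Iqsec2*, *Glrx2*, *Mtfmt*, *Fads3* and *Pex16*, from 0.982 to 0.994, and that for *Lhx1* held *Abhd18*, *Mmaa*, *Nat8f5*, *Bsdc1* and *Paqr7*, from 0.969 to 0.971. *Pax2* ran most like *Prdm16*, *Tenm4*, *Rims3*, *Sptb* and *Large2*, from 0.947 to 0.966, and *Pax8* ran like *Sulf2*, *Chka*, *Ptpn23* and *Tmem132a*, from 0.942 to 0.952. The other 2 had fewer close matches, with 14 genes over 0.9 for *Foxi1*, led by *Ncapd2*, *Knstrn*, *Nyap1*, *Polr2d* and *Kifc1* from 0.931 to 0.967, and 5 for *Tfap2b*, which were *Kif24*, *Arhgef38*, *Dapk1*, *Kdm5a* and *Ocln* from 0.901 to 0.937. None of the 8 factors was among the first 5 of another.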

How the data were processed

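Kidney RNA of 9 libraries was read by the authors. Per the labels and the study's methods, HISAT2 2.0.5 aligned the quality-filtered reads and featureCounts 1.5.0-p3 assigned them to genes, and GRCm38 and mm10 stand in the submitters' processing notes. The deposited count of each gene is a raw whole number. FPKM was derived by the authors from the count and the gene's length. The authors' own fold changes, p-values and group means were not used. Strand and multi-mapping settings are not given in the sources used here. Genes passing filterByExpr (minimum count 10, minimum total 15) were normalized by TMM and tested with edgeR 4.0.16 (quasi-likelihood, R 4.3.3) in a model of 3 group means, two-sided, with Benjamini-Hochberg adjustment over all genes. The SE is the log2 fold change divided by the root of F. CPM is TMM-normalized, and log2 CPM has a prior count of 2. The tests were tried on simulated data. The 8 genes and all lists were chosen with earlier results of these data known, so no list is independent support. Named genes were all 8 factors, the 3 smallest p-values of each list and comparison, and the 5 most like genes, less a few withheld genes that are not reported here; *Nfe2l3* and genes below the filter were named after their values were seen. Alternatives were DESeq2 1.42.0, upper-quartile scaling, 2 other filters, the 6 libraries compared, a replicate block, limma 3.58.1 (voom with quality weights, and limma-trend on FPKM) and leaving out each library. Depth was 15636378 to 18396725 counts per library, and counting intervals cover counting error only.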

Additional observations from a re-analysis of the deposited data

How the results depend on the processing

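With edgeR and all libraries 0 of the 8 factors and 0 of the 46 other kidney factors passed the adjusted threshold in any comparison, and in 21 mo/O304 against 18 mo this held under every alternative run. For 21 mo against 18 mo and 21 mo/O304 against 21 mo, the 8 factors passed in 3 and 4 cases with DESeq2, 3 and 1 with every gene of at least 1 count tested, and 6 and 7 with limma voom and sample quality weights, and in 0 to 4 and 0 to 5 cases when 1 library was left out. Of the other kidney factors 6 and 4 passed with DESeq2, 28 and 26 with voom, 2 in the first comparison with the loose filter, and 0 to 13 and 0 to 12 with 1 library left out. The voom weights were 9.11 for replicate 2 of the 21 mo group and 0.223 and 0.132 for its replicates 1 and 3, so that fit follows 1 library of the group. Over all genes the 3 comparisons gave 3, 0 and 0 calls with edgeR, 2058, 931 and 125 with DESeq2, 576, 17 and 0 with the loose filter, 8409, 6528 and 415 with voom, 0, 0 and 22 with the 6 libraries compared, and 0 to 4186, 0 to 3808 and 0 to 12 with 1 library left out. The most calls of the left-out fits came without replicate 1 of the 21 mo group in the first 2 comparisons, and the 12 without its replicate 3.

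The replicate number as a block gave 0 calls among the 8 factors and 0 over all genes in each comparison, and turned *Sox9* in 21 mo/O304 against 18 mo to 0.17. Same-numbered libraries deviated from their group means with correlations from -0.13 to 0.17 across genes, so the numbers were not taken as pairs. Among single genes, 384 of 432 values under the alternatives kept direction and side of the threshold and 33 newly passed it. The remaining 15 changed sign, none of them past the threshold. *Foxi1* became 0.39 with voom in 21 mo against 18 mo. With 1 library left out, the ranges that cross 0 were -0.48 to 0.30 for *Foxi1* and -0.13 to 0.56 for *Tfap2b* in 21 mo against 18 mo, -0.74 to 0.0241 for *Foxi1* in 21 mo/O304 against 21 mo, and in 21 mo/O304 against 18 mo -0.36 to 0.0524 for *Pax2*, -0.36 to 0.13 for *Pax8*, -0.41 to 0.16 for *Sox9* and -0.28 to 0.18 for *Tfap2b*. The causes were not tested. Depth limits *Sox9* most, since its 18 mo and 21 mo/O304 libraries hold 24 to 54 counts.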

Other observations

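The Sox genes *Sox8* and *Sox11* lay below the filter and had their highest count in the same library. *Sox8* had 74 counts in replicate 3 of the 21 mo group and 0 to 6 counts in the other 8 libraries. *Sox11*, the SoxC relative of *Sox4*, had 66 counts in that library, 20 in replicate 2 of the 21 mo group and 1 to 9 elsewhere. The urothelial and basal epithelial genes *Upk1b*, *Krt5* and *Krt14* had 1214, 1103 and 746 counts in the same library, 120, 74 and 39 in replicate 2 of the 21 mo group and 0 to 9 in the other 7. All of these were named after their values were seen, and no test was run on them.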
